A study of Rattus norvegicus with 23 samples.

Results

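Mature miR-210 comes as a pair of RNAs cut from 1 hairpin, rno-miR-210-3p and rno-miR-210-5p, and both were followed in rat PC12 cells over time. The members were taken by name, and they are 2 of the 413 named entries of the sRNAbench count table. PC12 is a rat pheochromocytoma line from the adrenal medulla that can be made to grow neurites. The α1ACT line stably carried a pcDNA3 plasmid for α1ACT, a transcription factor encoded by the calcium channel gene CACNA1A, here with 11 glutamine repeats and a Flag tag at its C-terminal end. The vector line carried the empty pcDNA3 plasmid, and both lines had been selected with G418 in the same medium. RNA was taken at 6 h, 24 h, 3 d and 10 d after the cells were split, from 3 libraries per group, except the vector line at 6 h with 2 (12 α1ACT and 11 vector libraries). How many clones made up a line is not in the labels, and an effect of α1ACT cannot be told apart from one between clones. Nor do they tie replicates to separate cultures: the p-values rest on the spread among these libraries, which may be technical.

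A miRNA hairpin yields 2 arms, of which usually one is kept by an Argonaute protein as the guide and the other, the passenger, is mostly degraded. In mammalian cells miR-210-3p is the usual guide, and it is best known as a target of the hypoxia-inducible factors: low oxygen raises it, and it represses messengers of mitochondrial respiration such as that of the iron-sulfur scaffold protein ISCU. Oxygen was not a factor in the labels, so no link of these values to hypoxia was tested.

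The sequences of RefSeq (build GRCr8) are shown because the results turn on the balance of the arms. In the mature RNAs the capitals mark the seed, bases 2 to 8, which does most of the target recognition.
rno-miR-210-3p: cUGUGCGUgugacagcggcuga
rno-miR-210-5p: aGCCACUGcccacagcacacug
Both are 22 bases long. Neither seed occurs in any of the other rat mature entries of that table (0 others of 724 entries searched for each arm), so each arm stands alone in its seed group. In the hairpin of 110 bases, at chr1:205755923-205756032 of GRCr8 on the minus strand, the capitals mark the 5p arm first and the 3p arm after it.
Mir210 hairpin: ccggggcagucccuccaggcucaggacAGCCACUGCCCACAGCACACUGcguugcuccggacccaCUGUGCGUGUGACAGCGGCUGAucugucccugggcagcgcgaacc
The arms are separated by 16 bases. The minimum free energy fold predicted by RNAfold had 16 base pairs between the arms and an energy of -46.5 kcal/mol. The same place in GRCr8 holds the non-coding transcript LOC102553043 and, on the opposite strand, the hairpin Mir3574, whose mature RNA is the exact reverse complement of miR-210-3p. In the Chimira table the entry miR-3574 had between 0 and 3 counts per library and was at 0 in 15 of 23 libraries.

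Total counts ran from 448557 (vector, 3 d, replicate 1) to 5070120, and the filter on low counts left 269 of the 413 entries for testing. The endocrine miRNA miR-375-3p led the marker list of PC12 cells at a mean of 146795 CPM, the count scaled to a common library total with TMM factors, miR-132-3p averaged 129 CPM and the neuronal miR-124-3p had at most 2 counts in a library. The rest of that list was low, with means of 50.8 CPM (miR-212-3p), 34.2 CPM (miR-9a-5p) and 5.88 CPM (miR-7a-5p, 0 to 50 counts per library). Among blood and muscle markers the highest count in any library was 43 (miR-142-5p), and miR-143-3p, abundant in smooth muscle and fibroblasts, stood at 291 to 1309 CPM. Of the other 3 markers of these cells miR-145-5p had at most 2 counts in a library, miR-199a-3p averaged 12.4 CPM and miR-214-3p had no entry. The endothelial marker miR-126a-3p had 11 to 128 counts per library and averaged 27.4 CPM. Of the 23 column names, 21 pointed to the library that resembled them most in the other deposited table. The remaining pair, vector 6 h replicate 2 and vector 10 d replicate 2, resembled each other instead, and the exchange touched miR-210 directly. In the column vector 6 h replicate 2 miR-210-5p had 189 counts by sRNAbench and 337 by Chimira, and in the column vector 10 d replicate 2 it had 325 and 196. Results that use either library are therefore given with these names exchanged or left out as well, where that changed them.

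**Figure D1:**
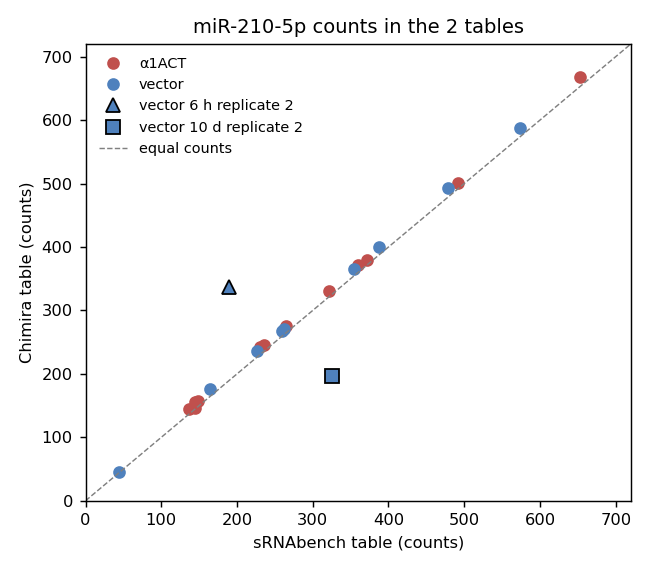
miR-210-5p counts per library in the Chimira table (vertical axis) against the sRNAbench table (horizontal axis), 1 point per library, coloured by line, with the line of equal counts. The vector libraries named 6 h replicate 2 (189 counts by sRNAbench and 337 by Chimira) and 10 d replicate 2 (325 and 196) lie away from that line, and the others lie along it.

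The 3p arm was the abundant one, and over all libraries its level varied less (coefficient of variation 16.9%) than that of the 5p arm (37.0%). It had 2721 to 27360 counts per library, 0.309% to 0.614% of all counts, and it was between the 22nd and the 40th most abundant entry of its library. At 6 h the level of miR-210-3p was 2995, 3923 and 3508 CPM in the α1ACT libraries, against 4108 and 4562 CPM in the vector libraries. At 24 h it was 3588, 4496 and 4523 CPM in the α1ACT line, against 4493, 4534 and 5272 CPM in the vector line. The α1ACT values lay below the vector values at 6 h without overlap, and at 24 h they overlapped slightly. At 3 d the levels were 4793, 4438 and 4724 CPM in the α1ACT line, against 6100, 5776 and 4990 CPM in the vector line. At 10 d they were 5241, 4812 and 5359 CPM in the α1ACT line, against 4121, 4043 and 6014 CPM in the vector line. The groups were again apart at 3 d, with the α1ACT line lower, and at 10 d the vector libraries spread on both sides of the α1ACT libraries. How many other miRNAs were apart between the lines at 6 h or 3 d is not given here. In order of group means the level of miR-210-3p was highest in the vector line at 3 d (5622 ± 570 CPM, SD, n = 3) and lowest in the α1ACT line at 6 h (3475 ± 465 CPM, SD, n = 3), and every group overlapped its neighbour in that order.

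The 5p arm was scarce, and in both lines its level was lower at 3 d than at 24 h. It had 44 to 653 counts per library and ranked between 102nd and 141st. At 6 h the level of miR-210-5p was 99.0, 109 and 81.5 CPM in the α1ACT libraries, against 70.8 and 85.2 CPM in the vector libraries. At 24 h it was 111, 158 and 119 CPM in the α1ACT line, against 133, 238 and 149 CPM in the vector line. In each line all 24 h libraries were above all 6 h libraries, and the vector library at 238 CPM was the highest of the series. At 3 d the levels fell to 64.5, 59.4 and 72.9 CPM in the α1ACT line, against 98.6, 87.4 and 70.2 CPM in the vector line. At 10 d they were 125, 160 and 155 CPM in the α1ACT line, against 88.8, 112 and 136 CPM in the vector line. The 3 d libraries were below all 24 h libraries in both lines, while from 3 d to 10 d the ranges were apart in the α1ACT line and overlapped in the vector line. Nor is it given here how many other miRNAs had ranges apart between these times. In order of group means miR-210-5p ran between 173 ± 56.7 CPM (vector, 24 h) and 65.6 ± 6.80 CPM (α1ACT, 3 d; SD, n = 3 each), and neighbouring groups overlapped throughout. In the Chimira table the vector line at 6 h had 76.2 and 119 CPM of miR-210-5p, which reached closer to its 24 h libraries at 133, 149 and 238 CPM.

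**Figure D2:**
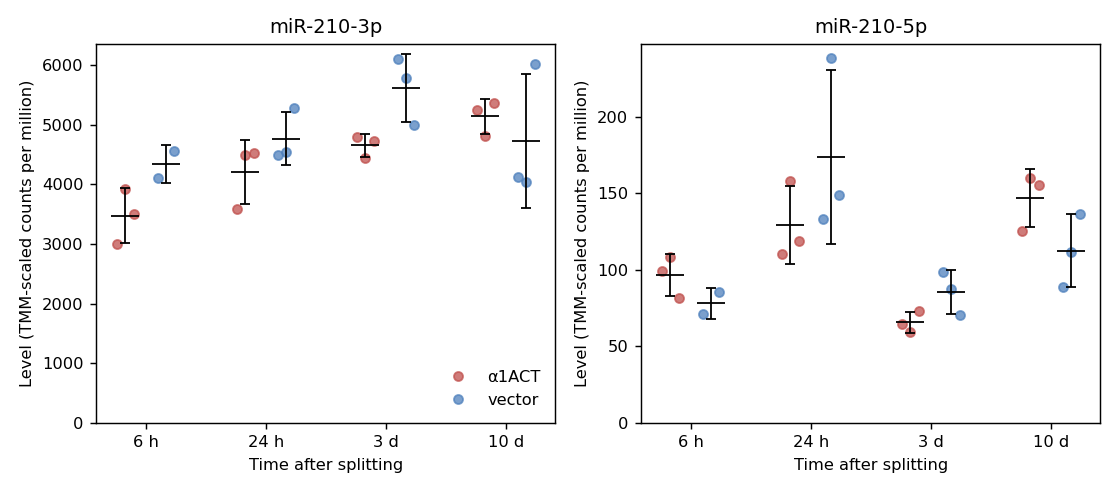
Level of miR-210-3p (left) and miR-210-5p (right) in CPM (TMM-scaled) against time after splitting, 1 point per library, α1ACT beside vector at each time, with bars for the mean ± SD (n = 3, and n = 2 for vector at 6 h). The 3p arm stays between 2995 and 6100 CPM, while the 5p arm is lower at 3 d (59.4 to 98.6 CPM) than at 24 h in both lines and reaches 238 CPM at 24 h. In the vector line it is as low at 6 h (70.8 and 85.2 CPM) as at 3 d.

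Because both arms are counted in the same library, their ratio needs no scaling between libraries. It was given as 3p counts per 5p count, and it was highest at 3 d in both lines. At 6 h the ratio was 30.2, 36.1 and 43.0 in the α1ACT line, against 58.0 and 53.6 in the vector line. At 24 h it was 32.5, 28.5 and 38.1 in the α1ACT line, against 33.7, 19.0 and 35.4 in the vector line. The lines did not overlap at 6 h and did at 24 h. At 3 d the ratio was 74.3, 74.7 and 64.8 in the α1ACT line, against 61.8, 66.1 and 71.1 in the vector line. At 10 d it was 41.9, 30.1 and 34.5 in the α1ACT line, against 46.4, 36.2 and 44.1 in the vector line. All 3 d libraries of either line lay above every library of the other times, and how many other hairpins had a time set apart in this way is not given here. As a share of both arms, miR-210-5p took 1.32% (α1ACT, 3 d, replicate 2; exact Clopper-Pearson 95% interval 1.11 to 1.56%) to 4.99% (vector, 24 h, replicate 2; 4.60 to 5.41%). In the shallow vector library of 3 d the share was 1.59% (1.16 to 2.13%), and these intervals cover counting error only. With the names of the Chimira table, the vector line had ratios of 55.7 and 35.7 at 6 h and of 46.6, 53.0 and 44.0 at 10 d, so that the gap between the lines at 6 h was no longer there.

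**Figure D3:**
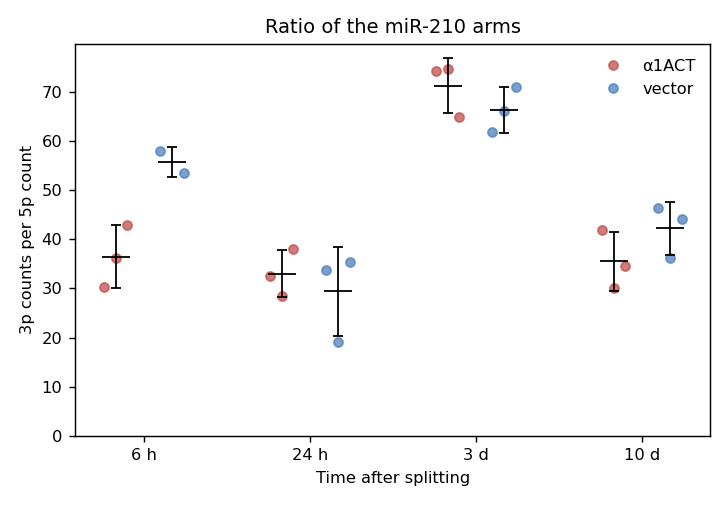
Ratio of miR-210-3p counts to miR-210-5p counts against time after splitting, 1 point per library, α1ACT beside vector at each time, with bars for the mean ± SD. All 3 d libraries sit between 61.8 and 74.7, above the libraries of the other times, which reach 58.0 at most.

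Over the 4 times miR-210-5p changed in the α1ACT line (edgeR quasi-likelihood F test, adjusted p after Benjamini-Hochberg = 0.000332) and likewise in the vector line (adjusted p = 0.000342), where 42.4% and 36.8% of the 269 miRNAs were called. The 3p arm changed over the times in the α1ACT line (edgeR adjusted p = 0.00661) and did not pass in the vector line (adjusted p = 0.162). Without α1ACT 6 h replicate 1 the call of the 3p arm in the α1ACT line was lost (adjusted p = 0.0521), and without vector 10 d replicate 3 that arm was called in the vector line too (adjusted p = 0.0137). The arm ratio changed over the times in both lines, by limma over 76 hairpins with both arms tested (Benjamini-Hochberg adjusted p = 0.00748 in the α1ACT line and 0.000940 in the vector line). For the ratio 40.8% and 30.3% of the hairpins were called. An exact permutation test of the ratio over the libraries of each line gave p = 0.0133 for the α1ACT line and p = 0.000649 for the vector line (F statistic over the 4 times).

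Between 24 h and 3 d the 5p arm fell in both lines. The log2 fold change of miR-210-5p for 3 d against 24 h was -0.98 in the α1ACT line (SE 0.202, edgeR with Benjamini-Hochberg adjustment, adjusted p = 0.000933) and -1.06 in the vector line (SE 0.206, adjusted p = 0.000461). In these steps 22.3% and 23.8% of all miRNAs were called. Without vector 24 h replicate 2, the library with the highest level, the value of the vector line was -0.70 (edgeR adjusted p = 0.0115). The 3p arm did not pass in either line, with log2 fold changes of 0.15 in the α1ACT line and 0.24 in the vector line (edgeR adjusted p = 0.440 and 0.217). The ratio rose by 1.14 on the log2 scale in the α1ACT line and by 1.39 in the vector line (limma adjusted p = 0.00811 and 0.000317, with 13.2% and 22.4% of hairpins called).

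From 3 d to 10 d miR-210-5p rose in the α1ACT line by a log2 fold change of 1.16 (SE 0.202, edgeR adjusted p = 0.000133, 32.7% of miRNAs called). In the vector line it was 0.43 (SE 0.204, edgeR adjusted p = 0.118, 25.3% called). The 3p arm had 0.14 in the α1ACT line and -0.25 in the vector line (edgeR adjusted p = 0.404 and 0.151), and without vector 10 d replicate 3 the value of the vector line was -0.49 (adjusted p = 0.0103). The arm ratio fell by 0.98 on the log2 scale in the α1ACT line (limma adjusted p = 0.00851, 27.6% of hairpins called) and by 0.68 in the vector line (adjusted p = 0.0422, 23.7% called). The call of the vector line did not hold when the exchanged names were used (-0.54, limma adjusted p = 0.165) or when any one of 10 libraries was left out, namely both vector libraries of 6 h, the 3 vector libraries of 3 d, the 3 vector libraries of 10 d, α1ACT 24 h replicate 1 and α1ACT 3 d replicate 3 (-0.74 to -0.59 over all 23 omissions).

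Between 6 h and 24 h the 5p arm rose in the vector line by a log2 fold change of 1.15 (SE 0.229, edgeR adjusted p = 0.00868), where it had the smallest p of the 269 miRNAs and 1.12% were called. In the α1ACT line it was 0.42 (SE 0.199, adjusted p = 0.200, 10.4% called). The vector value rests on the pair of 6 h libraries: with the exchanged names it was 0.92 (edgeR adjusted p = 0.0955), by Chimira it was 0.83 (adjusted p = 0.109), and without 6 h replicate 2 and 10 d replicate 2 it was 1.23 (adjusted p = 0.143). It also did not pass without either 6 h library or when the groups of the step were fitted alone (1.18, edgeR adjusted p = 0.116). The ratio fell by 1.10 on the log2 scale in the vector line (limma adjusted p = 0.0343, 2.63% of hairpins called). The log2 difference was -0.71 with the exchanged names (limma adjusted p = 0.248) and -0.69 without vector 24 h replicate 2 (adjusted p = 0.0961), and neither passed, nor did it without either vector 6 h library. In the α1ACT line the ratio had a log2 difference of -0.13 (adjusted p = 0.774, 23.7% of hairpins called). The 3p arm had 0.27 in the α1ACT line and 0.14 in the vector line (edgeR adjusted p = 0.200 and 0.769).

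**Figure D4:**
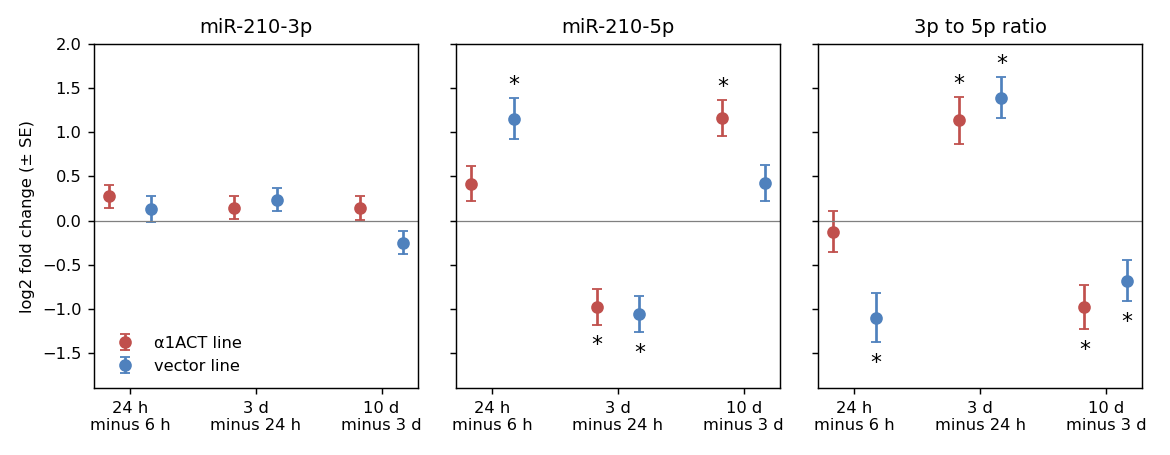
Log2 fold change (± SE) of miR-210-3p, miR-210-5p and their ratio for each step in time (later minus earlier), α1ACT line beside vector line; stars mark an adjusted p under 0.05 over all miRNAs (edgeR) or all hairpins (limma). The 5p arm drops by 0.98 and 1.06 between 24 h and 3 d while the 3p arm moves by 0.15 and 0.24, and the ratio rises by 1.14 and 1.39.

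Over the whole course, 10 d against 6 h, both arms rose in the α1ACT line. The log2 fold change was 0.56 for miR-210-3p (SE 0.131, edgeR adjusted p = 0.00218) and 0.60 for miR-210-5p (SE 0.198, adjusted p = 0.0256), with 27.1% of miRNAs called. The ratio of the arms differed by 0.03 (limma adjusted p = 0.919, 28.9% of hairpins called). The call of miR-210-5p was lost with the exchanged vector names (edgeR adjusted p = 0.0585), though its fold change did not move (0.60), and it was lost without any one of α1ACT 6 h replicates 1 and 3 and 10 d replicates 2 and 3 (adjusted p of 0.0747, 0.200, 0.102 and 0.0933; log2 fold change 0.44 without 6 h replicate 3). In the vector line the values were 0.12 for the 3p arm and 0.52 for the 5p arm, and neither passed (edgeR adjusted p = 0.645 and 0.129, 11.9% called). With the names exchanged these values were 0.27 and 0.18 (edgeR adjusted p = 0.993 for both), and in the Chimira table they were 0.20 and 0.077 (adjusted p = 0.996 for both). The log2 ratio of the vector line differed by -0.39 over that span (limma adjusted p = 0.423, 14.5% of hairpins called), and with the names exchanged by 0.14 (adjusted p = 0.973). That the course of either arm differed between the lines was not shown: the interaction of line and time had an edgeR adjusted p of 0.676 for miR-210-5p (unadjusted p = 0.0126) and 1.00 for miR-210-3p (unadjusted p = 0.114). For the ratio it was 0.565 (limma, unadjusted p = 0.0925). That edgeR test called 0 of the 269 miRNAs (0%), although 10 had an unadjusted p under 0.05; DESeq2 called 2 and limma-voom 0.

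The design sets the α1ACT line against the vector line, and neither arm of miR-210 passed between the lines. Over all libraries the level of miR-210-3p was 4367 ± 721 CPM in the α1ACT line (n = 12) and 4910 ± 773 CPM in the vector line (n = 11, mean ± SD). The differences between the lines that follow are means of the 4 times, each time weighted alike. The log2 fold change was -0.16 (95% interval -0.30 to -0.025, edgeR adjusted p = 0.116), in a comparison where 12.6% of miRNAs were called and the median of all was 0.00. The level of miR-210-5p over all libraries was 109 ± 35.8 CPM against 115 ± 48.7 CPM, with a log2 fold change of -0.02 (95% interval -0.23 to 0.19, edgeR adjusted p = 0.925) whose sign turned under 10 of 36 alternatives. The log2 ratio of the arms differed by -0.13 (95% interval -0.39 to 0.13, limma adjusted p = 0.778, 0% of hairpins called and 7 at an unadjusted p under 0.05). An exact permutation test of the ratio, with line names exchanged within each time, gave p = 0.280 (2-sided, difference -0.14 unweighted).

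At single times the difference between the lines did not pass for either arm. At 6 h and 10 d miR-210-5p had log2 fold changes of 0.31 and 0.38 between the lines, and at 24 h and 3 d it had -0.43 and -0.35 (edgeR adjusted p = 0.533, 0.358, 0.447 and 0.758). The 6 h value was 0.075 with the names exchanged (edgeR adjusted p = 0.942) and 0.031 in the Chimira table (adjusted p = 0.959), while that of 10 d was 0.50 and 0.55 (adjusted p = 0.224 and 0.157). For miR-210-3p the values were -0.32, -0.18, -0.27 and 0.12 in order of time (edgeR adjusted p = 0.420, 0.642, 0.532 and 0.768). The share of miRNAs called, in order of time, was 0%, 0.372%, 0.372% and 1.49%, where the 0 calls of edgeR at 6 h stand beside 30 miRNAs at an unadjusted p under 0.05, 3 calls of DESeq2 and 0 of limma-voom. The absence of overlap of the 3p arm at 6 h and 3 d is thus not matched by a call. At 6 h the log2 ratio of the arms was lower by 0.66 in the α1ACT line (95% interval of the difference -1.30 to -0.016, limma adjusted p = 0.418), and it was -0.27 with the names exchanged and -0.26 in the Chimira table. The exact permutation test of the ratio gave p = 0.200 at 6 h, with 0.1 as the smallest p the groups allow at any of the times.

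Among hairpins with both arms tested, miR-210 was strongly tilted to the 3p side. With a mean log2 ratio of 5.43 it stood 15th of 76, of which 37 had more 3p than 5p counts. Next above it were miR-3068 (5.76), miR-29c (5.95) and miR-27a (6.69), and next below it were miR-140 (4.84), miR-29b (4.79) and miR-505 (4.29). Its 8 group means spanned 1.33 on the log2 scale, against a median span of 0.94 over the 76 hairpins, and 15 hairpins spanned more. A span of this size was thus found in other hairpins too.

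**Figure D5:**
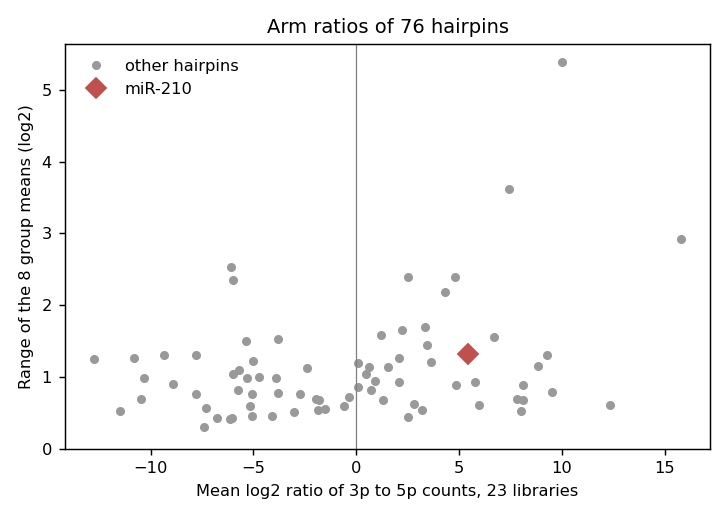
Range of the 8 group means of the log2 arm ratio (vertical axis) against the mean log2 ratio of 3p to 5p counts over 23 libraries (horizontal axis), 1 point per hairpin for 76 hairpins, with a line at equal counts. miR-210, at 5.43 and 1.33, is on the 3p side and among the more variable hairpins without being at the edge.

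Within groups the arms were not shown to vary together. Over 23 libraries the deviations of log2 CPM from the group means had a Pearson's r of 0.43 (permutation within groups, p = 0.126, adjusted p = 0.253) and a Spearman's rho of 0.46 (p = 0.0901, adjusted p = 0.180). Without the 2 libraries farthest from the median r was 0.29. The deviations of the log2 arm ratio and of the log2 total count had an r of 0.13 (permutation p = 0.531, adjusted p = 0.531) and a rho of 0.14 (p = 0.590, adjusted p = 0.590), and without 2 libraries r was 0.00. These 2 relations were the ones computed, and the replicates of a group share line and time.

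Across the 8 group means the arms were also unlike each other, with an r of 0.09. Among 221 entries compared, all averaging 10 CPM or more, the levels most like miR-210-5p were those of miR-879-5p (r = 0.87), the growth-linked miR-21-5p (0.86), miR-101b-3p (0.86), miR-33-5p (0.86), which lies in a gene of sterol regulation, and miR-101a-3p (0.84). In order of time, miR-879-5p had mean log2 CPM of 9.41, 9.73, 8.79 and 9.44 in the α1ACT line, against 9.29, 9.85, 8.99 and 9.36 in the vector line, so that its lowest mean in either line was that of 3 d. Least like it were let-7b-3p (-0.86) and miR-671 (-0.82). Most like miR-210-3p were let-7c-2-3p (0.90), miR-107-3p (0.80), miR-126a-5p (0.79), miR-146b-5p (0.79) and miR-106b-5p (0.77), and least like it were miR-125b-5p (-0.90) and let-7a-1-3p (-0.90). The entries let-7c-2-3p and let-7a-1-3p have the same mature sequence, and in all 23 libraries one of them had counts and the other had 0, so their likeness in either direction depends on how reads were assigned. These values are descriptions over 8 means, and by Spearman's rho 2 of the 5 named for the 3p arm and 1 of the 5 named for the 5p arm were among the 5 most like.

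Other miRNAs that have been described as responding to low oxygen in cultured cells were set beside miR-210. Of 19 listed, 16 were tested. The list was chosen with earlier results of these data known, so its shares of calls are descriptions and no independent test. Between the lines, as the mean of the times, 3 were higher in the α1ACT line, namely miR-181a-5p (log2 fold change 1.91, edgeR adjusted p = 1.39e-07), the scarce miR-181b-5p (1.71, adjusted p = 0.0102, mean 2.52 CPM) and miR-192-5p (0.16, adjusted p = 0.0195), and 1 was lower, miR-27b-3p (-0.16, adjusted p = 0.0490). These are 25% of the list, against 12.6% of all miRNAs (6.69% higher, 5.95% lower), and the list's median was 0.02, against 0.00 over all 269. With the names exchanged, in the Chimira table or without both libraries only miR-181a-5p and miR-181b-5p of the list passed. For 10 d against 6 h in the α1ACT line 5 rose and 1 fell: miR-181c-5p (0.37), miR-192-5p (0.32), miR-322-5p (0.41), miR-107-3p (0.37) and miR-103-3p (0.26) rose and miR-23b-3p fell by 0.31. That is 37.5% of the list, against 27.1% of all miRNAs (11.2% higher, 16% lower), and the list's median was 0.23, against -0.01 over all. Of these, miR-107-3p, miR-192-5p and miR-322-5p also passed with the names exchanged and in the Chimira table, and the others did not. Without both libraries miR-192-5p, miR-322-5p, miR-181c-5p and miR-23b-3p passed, and miR-107-3p and miR-103-3p did not. In the vector line 3 rose and 0 fell, miR-181c-5p (0.58), miR-23a-3p (0.56) and miR-322-5p (0.43), 18.75% of the list against 11.9% of all miRNAs (5.2% higher, 6.69% lower), with a median of 0.19 against 0.02, and miR-192-5p did not pass (0.29, edgeR adjusted p = 0.0555). None of these 3 passed in edgeR with the names exchanged, in the Chimira table or without both libraries, and with the names exchanged the medians were 0.07 for the list and 0.03 for all.

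Between 24 h and 3 d, the step in which miR-210-5p fell, 2 members of the list rose and 3 fell in the α1ACT line. Both seed relatives miR-103-3p (0.30) and miR-107-3p (0.37) rose, while miR-322-5p (-0.54), miR-192-5p (-0.40) and miR-27a-3p (-0.35) fell. In the vector line 3 rose, miR-103-3p (0.31), miR-107-3p (0.48) and miR-24-3p (0.37), and 2 fell, miR-192-5p (-0.55) and miR-27b-3p (-0.36). Each count is 31.25% of the list, against 22.3% of all miRNAs in the α1ACT line (10% higher, 12.3% lower) and 23.8% in the vector line (12.6% higher, 11.2% lower). The list's median was -0.10 in the α1ACT line and -0.15 in the vector line, against -0.01 and -0.04 over all miRNAs. In the Chimira table miR-107-3p did not pass in either line. The call of miR-24-3p in the vector line was lost in that table, with the names exchanged and without both libraries. With upper-quartile factors, under which 2.97% of all miRNAs were higher and 17.8% lower in the α1ACT line and 8.18% higher and 17.1% lower in the vector line, 0 of the list rose and 4 fell in the α1ACT line and 1 rose and 4 fell in the vector line. From 3 d to 10 d 5 rose and 0 fell in each line, 31.25% of the list. Of all miRNAs 32.7% were called in the α1ACT line (16.7% higher, 16% lower) and 25.3% in the vector line (13% higher, 12.3% lower). The 5 of the list were miR-192-5p (0.66), miR-23a-3p (0.54), miR-322-5p (0.53), miR-181c-5p (0.35) and miR-27a-3p (0.28) in the α1ACT line. In the vector line they were miR-192-5p (0.66), miR-181c-5p (0.62), miR-23a-3p (0.60), miR-322-5p (0.44) and miR-26a-5p (0.32). The list's median was 0.18 in the α1ACT line and 0.20 in the vector line for that step, against 0.01 over all miRNAs in both. With upper-quartile factors 21.9% of all miRNAs were higher and 8.92% lower in the α1ACT line and 29.4% higher and 4.83% lower in the vector line, and 6 and 8 of the list rose. With the names exchanged 3 of the list rose in each line.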

How the data were processed

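The authors deposited 2 tables of raw read counts, with 1 row for each mature miRNA. Their names point to sRNAbench (main here, 413 named entries) and Chimira (627 entries, an alternative). edgeR is named per the submitters' processing notes, while for the aligner, the miRBase release and the build the sources used here give nothing. Control columns were read as the vector line and WT columns as the α1ACT line, which is an assumption: 11 repeats is a normal length, and no label equates the names. Another 12 columns per table were not used, and 1 unnamed entry held 0 counts.

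Counts were fitted with edgeR 4.0.16 (R 4.3.3): filterByExpr (269 entries kept), TMM factors, 1 mean per group over 23 libraries, robust quasi-likelihood tests, Benjamini-Hochberg adjustment, calls at an adjusted p under 0.05. CPM divide each count by its TMM-scaled library total. The log2 arm ratio (0.5 added to each count) was fitted with limma 3.58.1 over 76 hairpins, weighted by counting error. Both fits were run on simulated data for the mean difference between the lines only, with outcomes not given here. The steps in time, the F tests and the interaction were not simulated. Replicate pairs differed beyond sampling noise (chi-square per degree of freedom at least 21.3). Alternatives were another table, scaling, filter or pseudocount, DESeq2 1.42.0, limma-voom, a replicate block, exchanged or omitted libraries, and permutation tests; omitting the shallowest library, exchanging names in the Chimira table for the ratio and the alternatives of the correlations and of the oxygen list were chosen after seeing the data. RNAfold 2.7.2 folded the hairpin.

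Named were both arms, the miRNAs of the oxygen list that were called or had the smallest p, the 5 most and 2 least like each arm, and 3 hairpins on either side of miR-210 in arm ratio. The members and lists were chosen with earlier results of these data known. Mir3574 was named after its position was seen.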

Additional observations from a re-analysis of the deposited data

How the results depend on the processing

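Of 1723 values of 52 results under alternatives, 1661 kept their direction and their side of the threshold, 36 no longer passed, 4 newly passed, 19 turned sign and 3 moved; the cause was not tested. In every alternative run, the calls held for miR-210-5p and the arm ratio over the 4 times and for 3 d against 24 h in both lines, for both at 10 d against 3 d in the α1ACT line, and for miR-210-3p at 10 d against 6 h in the α1ACT line (log2 fold change 0.46 to 0.66 with 1 library left out). The 24 h against 6 h rise of miR-210-5p in the vector line did not pass in the Chimira table (0.83), with the groups alone (1.18), with the 2 names exchanged (0.92), without both libraries (1.23), or without these and the shallowest library (1.27), and leaving out single libraries gave 0.85 to 1.34. The ratio of that step was -0.69 in the Chimira table, -0.71 with exchanged names and -1.16 without both libraries, with or without the shallowest (leave-one-out -1.29 to -0.69). For 10 d against 3 d in the vector line the ratio did not pass at -0.54 (Chimira), -0.54 (exchanged), -0.59 (both left out), -0.60 (the shallowest too) and -0.65 (no weights), with -0.74 to -0.59 on leaving out single libraries. For 10 d against 6 h the ratio turned sign in the vector line at 0.16 (Chimira) and 0.14 (exchanged), and in the α1ACT line at -0.035 (no weights; leave-one-out -0.15 to 0.16). The miR-210-5p change of the α1ACT line over that span was lost at 0.60 (exchanged) and 0.55 (both left out), with 0.44 to 0.71 on leaving out single libraries. With upper-quartile factors miR-210-5p passed in the vector line for 10 d against 3 d (0.65, edgeR adjusted p = 0.0142) and 10 d against 6 h (0.69, adjusted p = 0.0287), where that scaling moved the median of all miRNAs to 0.25 and 0.18. Between the lines the mean miR-210-5p difference turned sign with library totals (0.046), upper-quartile factors (0.069), without both libraries (0.0039) and without the shallowest too (0.026), and ran from -0.063 to 0.073 with 1 library left out. The ratio between lines at 24 h ran from -0.089 (without vector 24 h replicate 2) to 0.50. With 1 library left out, miR-210-3p of the vector line ran from -0.49 (without 10 d replicate 3, edgeR adjusted p = 0.0103) to -0.19 for 10 d against 3 d and from -0.066 (without that library) to 0.22 for 10 d against 6 h, and with upper-quartile factors these values were -0.024 and 0.29. With 1 library left out its adjusted p over the 4 times (edgeR) ran from 0.0137 to 0.430 in the vector line and from 0.00271 to 0.0521 in the α1ACT line, and over all alternatives it ran from 0.0137 to 0.511 and from 0.000944 to 0.0521. Of the 5 miRNAs most like miR-210-3p, 2 were among the 5 by Spearman's rho and 3 in the Chimira table, and for miR-210-5p 1 by rho. The correlation of total counts with the ratio was -0.030 (Chimira) and -0.012 (exchanged).

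Called miRNAs moved by more than 1.5 times from 34 to between 14 and 48 for the mean of the lines, from 28 to 16 to 43 (24 h against 6 h) and from 60 to 34 to 72 (3 d against 24 h) in the α1ACT line. In the vector line they moved from 3 to 0 to 5, from 68 to 44 to 101 (10 d against 3 d), from 32 to 0 to 60 (10 d against 6 h) and from 99 to 46 to 120 over the 4 times. Single times gave 0 to 7, 0 to 3, 0 to 6 and 0 to 11 calls and the interaction 0 to 4. For the mean of the lines 18 were higher and 16 lower, against 43 and 5 with upper-quartile factors and 36 and 5 with library totals. With upper-quartile factors the split for 10 d against 6 h was 16 higher and 48 lower in the α1ACT line (30 and 43 with TMM) and 43 and 17 in the vector line (14 and 18 with TMM). Pairing by replicate number was not tested, as its correlations (-0.683 to 0.734) had no other pairs beside them. A replicate block gave fewer calls in no comparison (141 against 114 over the 4 times, α1ACT line). It changed no call of either arm or the ratio. Single-time permutation tests were not rerun, since they cannot pass. With 44 counts of miR-210-5p in the shallowest library, depth limits the ratio at 3 d in the vector line.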
